A study of Mus musculus with 12 samples.

Results

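The aminoacyl-tRNA synthetase genes of splenic resting B cells were followed through early activation, with and without Runx1. They were chosen by symbol, as 20 genes for the cytosolic enzymes and 16 for the mitochondrial enzymes whose symbols end in 2. All 36 were found among the 37991 genes counted, and all 36 were among the 13538 genes tested. RNA was sequenced from B cells of 8-week-old mice in 4 groups of 3 samples. These were Cre-only cells and cells of the Runx1 c-k/o genotype, each at 0 h and after a 3-h culture with anti-IgM plus IL-4. Every mouse of both genotypes carried the CD23-iCre transgene, and the Runx1 c-k/o mice carried it with Runx1 fl/fl alleles. Cre driven by the CD23 promoter removed exon 4 of Runx1 from the transitional B cell stage onwards. Spleen cells other than B cells, and B cells already activated (CD43+), were taken out by negative selection, and each sample is bulk RNA of what was left. The study calls the replicates biological, and whether each came from 1 mouse or from several is not given in the sources used here, so p-values measure the spread between these samples.

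Each synthetase joins 1 kind of amino acid to the tRNAs that carry it, and ribosomes draw on these charged tRNAs to build protein. Cells keep separate enzymes for the cytosol and for the mitochondrion, nearly all made from separate nuclear genes. Kars and Gars encode both forms, Eprs encodes a fused enzyme for glutamate and proline, and the cytosolic phenylalanine enzyme is built from an alpha chain (Farsa) and a beta chain (Farsb). In the mitochondrion, glutaminyl-tRNA is made by amidation of a mischarged tRNA, and there is no separate glutamine enzyme. In the cytosol, the products of Dars, Eprs, Iars, Kars, Lars, Mars, Qars and Rars assemble on the scaffold proteins Aimp1, Aimp2 and Eef1e1 into the multisynthetase complex. Many cytosolic synthetase genes are known targets of Atf4, a transcription factor that binds composite sites of the form TGATGNAA and drives amino acid supply. A resting B cell makes little protein, and an antigen receptor signal with IL-4 starts its growth ahead of division.

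The stretches shown first are from 4 synthetase genes whose start-site window held such a site, since they include the 3 genes with the largest changes on activation. Windows of 300 bases around the start, 250 before and 50 after, were taken from RefSeq on build GRCm38.p6 and matched by symbol. They were found for 13 of the 20 cytosolic and 14 of the 16 mitochondrial genes, and Cars, Hars, Lars, Nars, Rars, Vars, Wars, Hars2 and Pars2 had no entry. Each stretch is 30 bases on the strand of the gene, and capitals mark the match to TGATGCAA or its reverse complement (in Gars, to TGATGNAA). In Gars (chr6:55037960-55037989, plus strand) the match lies 30 to 23 bases before the start, and in Tars (chr15:11399655-11399684, minus strand) 15 to 8 before. In Iars (chr13:49682126-49682155, plus strand) it lies 7 to 14 bases after the start and in Yars (chr4:129189895-129189924, plus strand) 3 to 10 after.
Gars: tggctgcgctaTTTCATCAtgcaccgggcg
Iars: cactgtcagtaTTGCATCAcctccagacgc
Tars: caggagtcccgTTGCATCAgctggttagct
Yars: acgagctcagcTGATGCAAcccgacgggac

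Both strands were searched for TGATGCAA and for TGATGNAA, which takes in the first. They were also searched for CACGTG, the core site of Myc and other E-box factors. The remaining motifs were TGTGGT, the core site of Runx factors, and then the Ets factor site CCGGAAG. TGATGCAA was in 4 of 13 cytosolic windows (Aars, Iars, Tars and Yars) and 0 of 14 mitochondrial windows, against 0.895% of all 32851 RefSeq windows of this length and 0.819% of the 8788 tested genes with a window. TGATGNAA was in 5 of 13 cytosolic and 0 of 14 mitochondrial windows, in 3.97% of all windows and in 2.89% of those of tested genes. CACGTG, at 7.15% of all windows and 12.1% of those of tested genes, was in Aars, Farsb, Iars and Tars and in the mitochondrial Ears2. TGTGGT, at 16.8% and 15.8%, was in Dars and Yars2 only. CCGGAAG, at 8.86% and 20.2%, was in Farsa, Gars, Kars, Mars and Sars and in Cars2, Mars2, Rars2 and Sars2. Over the 72 tested genes whose window held TGATGCAA, the median log2 change in Cre-only cells was -0.11 and 40.3% were called higher, against 40.8% of all tested genes with a window. The 250 bases before the start of Iars (chr13:49681880-49682129, plus strand) are printed because this gene had the largest change and holds CACGTG, in capitals, beside the TGATGCAA match after the start.
Iars: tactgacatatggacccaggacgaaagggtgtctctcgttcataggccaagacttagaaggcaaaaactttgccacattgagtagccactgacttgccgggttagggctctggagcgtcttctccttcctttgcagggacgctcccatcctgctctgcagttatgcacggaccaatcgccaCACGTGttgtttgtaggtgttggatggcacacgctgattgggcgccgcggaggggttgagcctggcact

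The values are read counts per gene, given here as CPM (TMM-normalized counts, rescaled so that all libraries share the same effective size), which are shares of the counted RNA and not amounts per cell. Totals ran from 14442251 to 23641552 counts per sample, and no synthetase gene had fewer than 67 counts in any sample. The first principal component, with 84.8% of the variance, parted resting from 3-h samples. The second, with 5.64%, parted the genotypes, with Cre-only samples at 13.48 to 23.58 and Runx1 c-k/o samples at -46.46 to 1.67. On it, 2 Runx1 c-k/o libraries stood furthest apart, replicate 2 at rest (-37.01) and replicate 1 at 3 h (-46.46). The genotype medians are given with and without these 2 libraries. The summed level of 7 B cell markers was 7984 to 9145 CPM in the resting samples and 4583 to 5414 CPM at 3 h, with 5 of the 7 called lower on activation in Cre-only cells. That of 7 T and NK cell markers (3 tested) was 0.510 to 6.94 CPM over all samples, and that of 6 myeloid markers fell from 234–462 CPM at rest to 27.8–61.6 at 3 h. Runx1 counts cover all exons and do not separate exon 4, so its level, 81.8 to 86.7 CPM in Cre-only and 95.7 to 102.7 in Runx1 c-k/o cells at rest, does not check the deletion. At 3 h it was at 34.9 to 38.5 CPM in Cre-only and 47.3 to 74.5 CPM in Runx1 c-k/o cells and was called higher in the latter (log2 difference 0.80, edgeR adjusted p = 0.00769).

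The first question was how the synthetase genes changed within 3 h of activation in Cre-only cells. Of the 36 genes, 30 rose, 3 fell and 3 passed in neither direction by edgeR's quasi-likelihood test at an adjusted p of 0.05, while of all tested genes 38.6% were called higher and 36.4% lower. All 3-h samples lay above all resting samples in 31 of these genes and below them in 3. Over the 13538 tested genes these counts were 5923 and 5497. The cytosolic genes mostly rose together: 18 of 20 were called higher, with a median log2 change over the 20 of 2.17, against 0.03 over all tested genes. This median was smaller with 1 RUVs factor, an estimate of unwanted differences between replicates put in the model, and the values are given at the end. Their summed level went from 1831 ± 10.5 CPM to 7125 ± 223 CPM (SD, n = 3), a ratio of 3.89. The mitochondrial genes changed less, with 12 of 16 called higher, 2 called lower and a median log2 change of 0.64. In bulk RNA, a change in the number of cells of one type and in the RNA per cell cannot be told apart. No group was cultured for 3 h without anti-IgM and IL-4. Activation here thus means 3 h of culture with them, and effects of culture and of stimulation cannot be told apart.

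**Figure D1:**
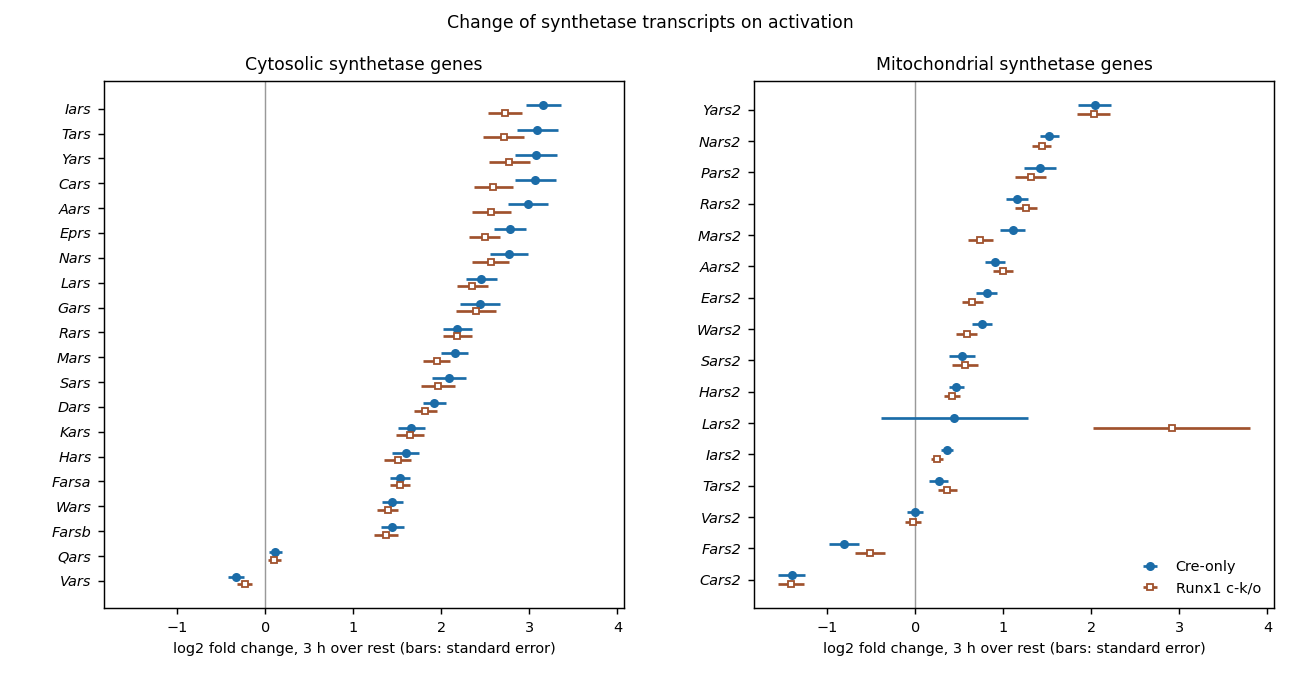
Log2 change from rest to 3 h for each of the 36 genes, with filled points for Cre-only cells, open squares for Runx1 c-k/o cells and bars of 1 standard error of the fit. In Cre-only cells the cytosolic genes run from -0.33 (Vars) to 3.16 (Iars) and the mitochondrial genes from -1.41 (Cars2) to 2.04 (Yars2).

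The largest change was that of Iars, the isoleucine enzyme and a member of the complex (ENSMUSG00000037851, mm9 chromosome 13 from 49777469 to 49829636). Iars was at 79.5, 80.1 and 77.2 CPM in resting Cre-only replicates 1, 2 and 3 and at 692, 713 and 707 CPM at 3 h. All 3-h samples lay far above all resting samples, and replicates within a group lay close together. By edgeR this was a change of 3.16 ± 0.198 on the log2 scale (standard error, adjusted p = 4.69e-08), or 8.92-fold. A stretch of chromosome 1 from 19321316 to 19323749 matches 28.8% of the exon bases of Iars at 95.1% to 98.2% identity, and reads from there could have been counted on it.

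Tars, which charges threonine tRNA (chromosome 15 from 11313418 to 11329413), was at 48.0, 48.6 and 50.1 CPM at rest and at 388, 433 and 428 CPM at 3 h. Yars, the tyrosine enzyme (chromosome 4 from 128867004 to 128896851), was at 32.3, 33.5 and 31.9 CPM at rest and at 260.1, 284 and 279.7 CPM at 3 h. Cars, the cysteine enzyme (chromosome 7 from 150743135 to 150785995), was at 33.6, 30.8 and 33.1 CPM at rest and at 257, 282 and 279 CPM at 3 h. In each of these, every 3-h sample was several times above every resting sample. Their log2 fold changes were 3.09 ± 0.236, 3.08 ± 0.236 and 3.07 ± 0.229 (standard errors; edgeR adjusted p = 1.97e-07, 2.01e-07 and 1.68e-07). These 3 values differ from each other and from that of Iars by less than their standard errors.

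Aars, the alanine enzyme (chromosome 8 from 113557044 to 113581564), rose from 69.1, 72.1 and 69.6 CPM to 529, 562 and 573 CPM, which is 2.98 ± 0.227 on the log2 scale (edgeR adjusted p = 1.91e-07). Eprs, the fused glutamate and proline enzyme of the complex (chromosome 1 from 187186974 to 187252234), rose from 129, 127 and 126 CPM to 841, 882 and 896 CPM. Its log2 fold change was 2.78 ± 0.181 (edgeR adjusted p = 6.31e-08). Neither gene had overlapping groups. Nars, the asparagine enzyme, rose from 91.7, 97.8 and 96.8 CPM to 628, 667 and 655 CPM, 6.82-fold. Lars, the leucine enzyme of the complex, rose from 77.9, 75.6 and 76.8 CPM to 404, 425 and 433 CPM, 5.48-fold. Both of these changes again left a wide gap between resting and 3-h samples. With 1 RUVs factor in DESeq2, an estimate of unwanted differences between replicates put in the model, several of these changes were over 1.5 times smaller as folds. On the log2 scale they were then 2.31 for Cars, 2.27 for Tars, 2.26 for Yars, 2.22 for Aars, 2.02 for Nars and 1.83 for Lars, and all kept their calls.

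The other cytosolic genes that rose had log2 fold changes between 1.44 and 2.44, from Gars (glycine, 2.44), Rars (arginine, 2.18), Mars (methionine, 2.15) and Sars (serine, 2.08) down to Dars (aspartate, 1.92), Kars (lysine, 1.66), Hars (histidine, 1.60), Farsa and Farsb (the phenylalanine chains, 1.53 and 1.44) and Wars (tryptophan, 1.44). With 1 RUVs factor in DESeq2 these 10 lay between 0.85 (Farsb) and 1.57 (Mars), all still called. The 2 phenylalanine chains, which form a single enzyme, had close changes. Membership of the multisynthetase complex did not mark out the larger changes: the median log2 change was 2.17 over the 8 complex genes and 2.26 over the 12 others, a description with no test. The 5 genes with a TGATGNAA site, Aars, Gars, Iars, Tars and Yars, had log2 changes of 2.44 to 3.16, and Cars, which had no window entry, was at 3.07. The 8 cytosolic genes with a window and no such site had log2 changes of 0.12 (Qars) to 2.78 (Eprs), so the ranges overlapped. On the other strand, 10.8% of the exon bases of Farsb overlap those of Sgpp2, 9.81% of Hars those of Hars2, 5.42% of Vars those of D17H6S56E-5, 4.54% of Cars those of Gm15580 and 1.99% of Mars those of Ddit3, and the strand setting of the counting is not given in the sources used here.

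A pair of cytosolic genes stood outside the common rise. Vars, the valine enzyme (chromosome 17 from 35137932 to 35153267), had the highest resting level per length of all 36. It was at 502, 494 and 501 CPM at rest and went to 385, 388 and 415 CPM at 3 h. Every 3-h sample lay below every resting sample, by -0.33 ± 0.0892 on the log2 scale in edgeR's test (adjusted p = 0.00446). With the other cytosolic genes rising, Vars made up 27.3% ± 0.317 of the summed cytosolic level at rest and 5.56% ± 0.200 at 3 h (SD, n = 3). Qars, the glutamine enzyme of the complex (chromosome 9 from 108410336 to 108418272), was at 123, 121 and 114 CPM at rest and 131.5, 131 and 126 CPM at 3 h. Its 3-h samples lay just above its resting samples, with a log2 fold change of 0.12 (edgeR adjusted p = 0.185) whose sign turned under total-count scaling and with 1 RUVs factor.

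Among the mitochondrial enzymes, Yars2 for tyrosine had the largest rise. Yars2 (chromosome 16 from 16303058 to 16309733) was at 11.4, 11.8 and 10.7 CPM at rest and at 44.9, 49.9 and 44.3 CPM at 3 h. Nars2 for asparagine was at 10.3, 10.6 and 9.23 CPM at rest and at 27.2, 32.0 and 27.6 CPM at 3 h. Pars2 for proline was at 5.01, 5.24 and 4.52 CPM at rest and at 12.8, 13.6 and 13.1 CPM at 3 h. In none of the 3 did resting and 3-h samples overlap, as in most tested genes (5923 above and 5497 below of 13538). The log2 fold changes were 2.04 ± 0.187, 1.52 ± 0.107 and 1.42 ± 0.179 (standard errors; edgeR adjusted p = 8.74e-07, 1.00e-07 and 1.40e-05). With 1 RUVs factor in DESeq2, Yars2 was at 1.28 and Pars2 at 0.81, both still called.

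Rars2 (1.16), Mars2 (1.10), Aars2 (0.91), Ears2 (0.81), Wars2 (0.76), Sars2 (0.53), Hars2 (0.47), Iars2 (0.36) and Tars2 (0.26) also rose on the log2 scale. Tars2 passed narrowly (edgeR adjusted p = 0.0410; 0.0523 with the replicate pairs of resting and 3-h samples as a block), and it passed in 9 of 23 alternative fits, where the adjusted p ran from 0.0116 to 0.795. With 1 RUVs factor in DESeq2, Hars2 and Sars2 were not called (adjusted p = 0.239 and 0.943). Exons of Iars2 share 22.7% of their bases with Rab3gap2 on the other strand, those of Nars2 6.74% with C230038L03Rik, and those of Hars2 share 195 bases with Hars. Vars2, the partner of Vars, had a log2 change of -0.00393 and was not called. Lars2 was not called either, with a log2 change of 0.44 in the presence of 1 outlying Runx1 c-k/o library described below, and without that library it was called at 0.46 (edgeR adjusted p = 0.0183). With 1 RUVs factor in DESeq2 the Lars2 value was 2.81 and not called (adjusted p = 0.0750), the largest move of the 36 genes under that setting.

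Cars2 and Fars2, the mitochondrial cysteine and phenylalanine enzymes, fell. Cars2 (chromosome 8 from 11514021 to 11550771) was at 30.4, 27.4 and 29.4 CPM at rest and at 10.7, 8.82 and 13.4 CPM at 3 h. Fars2 (chromosome 13 from 36209280 to 36629461) was at 13.7, 13.0 and 14.7 CPM at rest and at 7.94, 7.97 and 7.71 CPM at 3 h. For both, all 3-h samples lay below all resting samples. The log2 fold changes were -1.41 and -0.81 (edgeR adjusted p = 3.12e-06 and 8.59e-04), and that of Fars2 was -1.43 with 1 RUVs factor in DESeq2. Cysteine was thus the amino acid with the widest split, its cytosolic gene rising 8.39-fold while its mitochondrial gene fell. With 1 RUVs factor in DESeq2 the rise of Cars was smaller, at a log2 change of 2.31, as given above.

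To set the cytosolic and mitochondrial genes of each amino acid side by side, levels were divided by the length of the gene's annotated exons (CPM per kb). Resting levels per length ran from 1.59 ± 0.118 for Pars2 and 2.38 ± 0.168 for Nars2 to 42.4 ± 2.65 for Kars, whose product serves both compartments, and 89.0 ± 0.741 for Vars (SD, n = 3). The CPM of Kars was 101, 95.4 and 89.5 at rest and 297, 309 and 299 at 3 h. At 3 h the highest levels per length were those of Nars (247) and Tars (158), and the lowest were those of Fars2 (3.70) and Cars2 (4.18). Of the 35 neighbours in the order, 22 overlapped over their samples at rest and 18 at 3 h. At rest, Vars lay apart from Kars, Kars from Nars and Nars from Sars, while most ranks in the middle did not. Annotated exons include those of all transcripts, so a gene with long alternative exons such as Aars, at 9.28 kb, has its level per length understated.

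Over 17 pairings of a cytosolic with a mitochondrial gene, the cytosolic gene was at the higher level per length in 15 at rest and in 17 at 3 h. The exceptions at rest were cysteine, where the ratio of Cars to Cars2 was 0.631, and leucine, where the ratio of Lars to Lars2 was 0.813. The median ratio went from 2.13 at rest to 9.54 at 3 h, and it was higher at 3 h in 16 of 17 pairings. For cysteine it went from 0.631 to 14.02. Valine was the exception, with a ratio of Vars to Vars2 of 16.2 at rest and 12.9 at 3 h. The difference of the log2 changes, cytosolic minus mitochondrial, had a median of 1.55 over the pairings. Eprs and Fars2 each enter 2 pairings, which are therefore not independent.

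**Figure D2:**
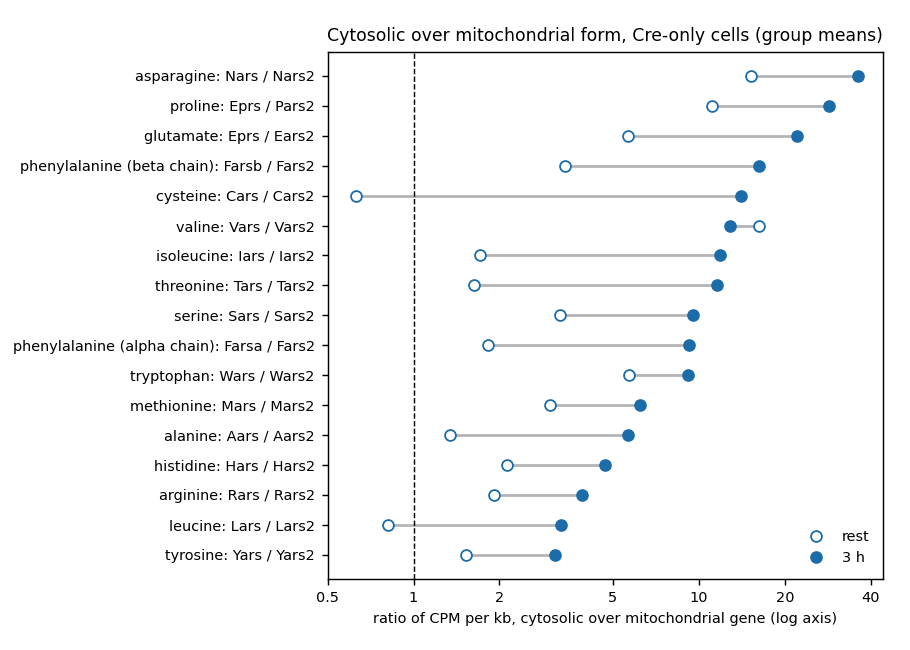
Ratio of the level per length of the cytosolic gene to that of the mitochondrial gene (log axis) for 17 pairings in Cre-only cells, from the group means at rest (open circles) and at 3 h (filled circles). The ratio moves up in 16 pairings, from a median of 2.13 to 9.54, and moves down for valine.

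Partner genes of the synthetases were read from lists. All 3 scaffold genes of the complex rose in Cre-only cells, Aimp2 by 2.88 and Eef1e1 by 2.83 on the log2 scale but Aimp1 by 0.91. Of 16 genes known as targets of Atf4 or as Atf4 itself, 15 were tested and all 15 rose, with a median log2 change of 2.62, against 38.6% called higher and a median of 0.03 over all tested genes. The call of Ddit4 was narrow (log2 change 0.47, edgeR adjusted p = 0.0480), and it was kept in 7 of 23 alternative fits, with adjusted p from 0.0105 to 0.896. Ddit3 and, among the scaffold genes, Aimp1 lost their calls with 1 RUVs factor in DESeq2. The largest changes in the list were those of Chac1 and Trib3. Chac1, which degrades glutathione, was at 0.29, 0.06 and 0.25 CPM at rest, about the level of 3 counts (0.127 to 0.208 CPM before normalization, for counting error only), and at 20.59, 23.97 and 21.98 CPM at 3 h. Trib3, a feedback inhibitor of this response, was at 0.72, 0.85 and 0.56 CPM at rest and at 37.6, 44.4 and 45.4 CPM at 3 h. In neither gene did a resting sample come near a 3-h sample.

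The genes downstream of charging were read in the same way. Of 9 elongation factor genes, which carry charged tRNAs to the ribosome or move the ribosome on, 7 rose and 1 (Eef2, log2 change -0.24) fell, where 38.6% of all tested genes were called higher and 36.4% lower. Eef2 kept its call in 11 of 23 alternative fits (adjusted p 1.48e-11 to 0.123). It lost the call with the replicate pairs of resting and 3-h samples as a block, within genotype or across groups. The fall of Eef2 is thus not called when the pairing of Cre-only samples is fitted. Of 8 genes for editing of mischarged tRNA or for selenocysteine, 5 rose and 1 (Dtd1, -0.45) fell. For mitochondrial amidation and formylation, Gatc (1.58), Mtfmt (0.80) and Pet112l (0.43) rose and Qrsl1 (-0.46) fell. The median log2 change was 0.75 over the elongation genes, 0.83 over the editing and selenocysteine genes and 0.61 over the amidation and formylation genes, against 0.03 over all tested genes. With 1 RUVs factor in DESeq2, Eef1g, Gfm2, Aarsd1, 6530401N04Rik and Pet112l were not called.

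The same comparison in Runx1 c-k/o cells showed the rise in the same direction. There, 31 of 36 genes were called higher, Lars2 through a single library, and 3 lower, against 37.7% and 36.6% of all tested genes. Qars and Vars2 passed in neither direction, as in Cre-only cells. Iars2 (log2 change 0.25) kept its call in 19 of 23 alternative fits and lost it with total counts, with no filter on low counts, over genes with 10 counts in every sample and with only the 2 groups compared. Hars2, Sars2 and Tars2 lost theirs with 1 RUVs factor in either tool, and Ears2 with 1 RUVs factor in DESeq2. The median log2 change was 2.07 over the cytosolic and 0.62 over the mitochondrial genes. The cytosolic median was again smaller with 1 RUVs factor, with values at the end. The summed cytosolic level went from 2119 ± 474 to 7644 ± 829 CPM (SD, n = 3), with a far wider spread within each group than in Cre-only cells. Across the 36 genes, the log2 changes of both genotypes had a Pearson r of 0.919, and of 0.993 without Lars2, as a description over genes that share libraries.

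For 18 of 20 cytosolic genes, the rise fitted in Runx1 c-k/o cells was smaller than that of the controls, with Iars at 2.72 against 3.16 and Cars at 2.59 against 3.07. Without the resting replicate 2 the fitted log2 change was lower than that of the controls for 3 of 20, Iars among them, and higher for 17. The 17 include Vars, which fell less than in the controls. Without that library the cytosolic median in Runx1 c-k/o cells was 2.31, without the 3-h replicate 1 it was 1.92, and without both it was 2.11. Vars was called lower at a log2 change of -0.24 (edgeR adjusted p = 0.0303), a call kept in 12 of 23 alternative fits. The call of Vars, the 1 cytosolic gene called lower, was lost without any single one of the 3 resting Runx1 c-k/o samples, without 3-h Runx1 c-k/o replicate 2 or 3, and without Cre-only resting replicate 3 or 3-h replicate 2 or 3. Cars2 fell by 1.41, as in Cre-only cells. Fars2 fell by 0.51 on the log2 scale (edgeR adjusted p = 0.0146) with overlapping groups, at 13.8, 17.5 and 15.4 CPM at rest and 13.9, 10.8 and 8.07 CPM at 3 h, and it kept its call in 20 of 23 alternative fits.

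In single genes, the resting Runx1 c-k/o replicate 2 lay apart from replicates 1 and 3. Iars was at 77.6, 136 and 78.7 CPM at rest in replicates 1, 2 and 3 of the Runx1 c-k/o cells and at 576, 620.2 and 734 CPM at 3 h. Tars was at 54.5, 101 and 48.2 CPM at rest and at 519.6, 387 and 424 CPM at 3 h. Yars was at 35.3, 65.99 and 31.2 CPM at rest and at 354, 272 and 281 CPM at 3 h. In these 3 genes replicate 2 was the highest at rest, and in Tars and Yars replicate 1 was the highest at 3 h. Cars was at 38.4, 74.6 and 37.2 CPM at rest and at 344, 279 and 282 CPM at 3 h. Aars was at 82.6, 152 and 75.1 CPM at rest and at 699, 560.3 and 575 CPM at 3 h. Both had the same 2 high libraries. Eprs was at 118, 209 and 130.1 CPM at rest and at 832, 819 and 923 CPM at 3 h. Nars was at 92.4, 177 and 97.0 CPM at rest and at 826, 644 and 690.3 CPM at 3 h. Lars was at 74.7, 123 and 74.5 CPM at rest and at 517, 406 and 465 CPM at 3 h. In all 8 genes every 3-h sample still lay above every resting sample. In Runx1 c-k/o cells this held for 4937 of the 13538 tested genes, and the reverse for 4917. Kars was at 94.3, 139 and 93.0 CPM at rest and at 399, 303 and 317 CPM at 3 h. Vars was at 497, 521 and 490.2 CPM at rest and at 473, 409.8 and 398 CPM at 3 h. Qars was at 122, 132 and 119 CPM at rest and at 142, 128 and 131 CPM at 3 h. Kars and Vars did not overlap between times, and Qars did.

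Of the mitochondrial genes, Yars2 was at 11.1, 17.3 and 10.9 CPM at rest and at 66.8, 47.5 and 45.8 CPM at 3 h in Runx1 c-k/o cells. Nars2 was at 9.14, 10.8 and 10.4 CPM at rest and at 28.1, 25.6 and 28.1 CPM at 3 h. Pars2 was at 4.86, 7.43 and 4.45 CPM at rest and at 15.8, 11.7 and 14.02 CPM at 3 h. Yars2 and Pars2 had the same high libraries as Tars and Yars, and Nars2 varied little. Cars2 was at 30.7, 29.1 and 26.7 CPM at rest and at 11.1, 12.3 and 9.07 CPM at 3 h, close to its Cre-only levels. Of the Atf4 target genes, Chac1 was at 0.234, 4.59 and 0.531 CPM at rest and at 36.4, 31.4 and 26.3 CPM at 3 h. Trib3 was at 0.937, 8.01 and 0.995 CPM at rest and at 66.8, 42.2 and 45.6 CPM at 3 h. In both, the resting replicate 2 was several times above the other resting samples.

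**Figure D3:**
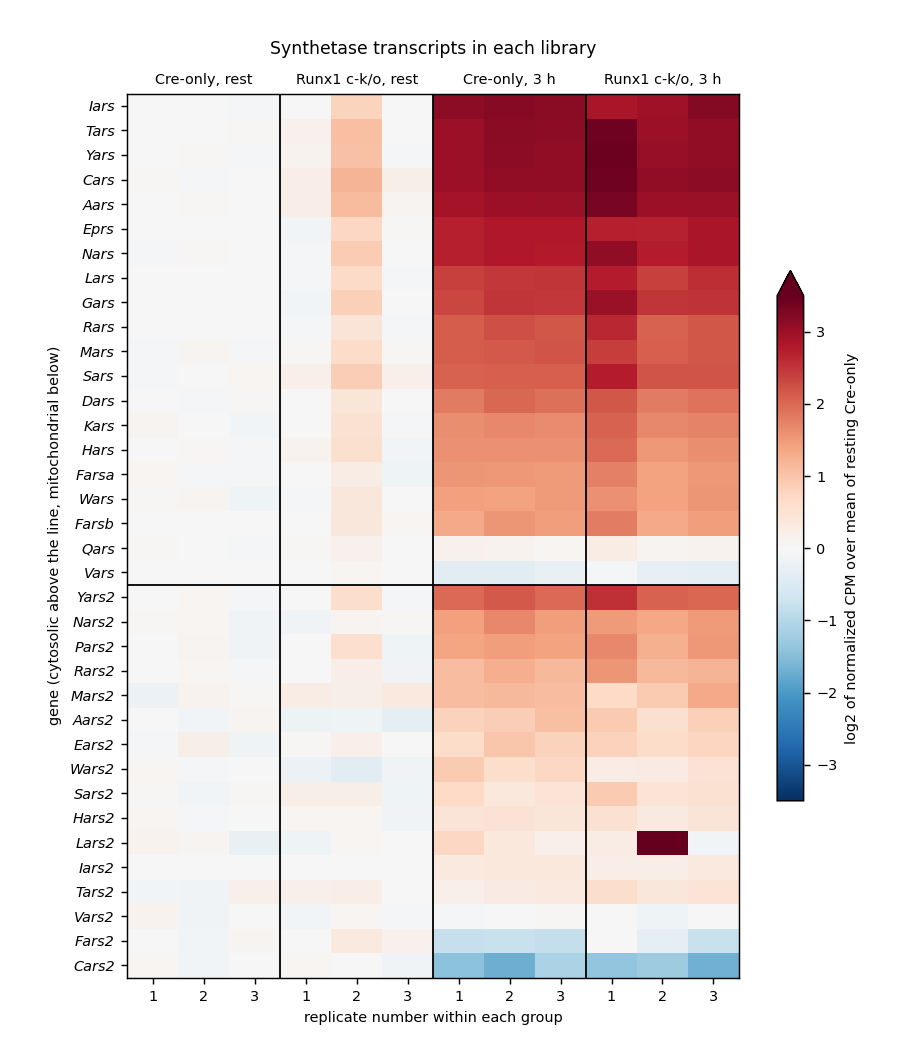
Log2 level of each cytosolic and mitochondrial gene in each of the 12 samples relative to the mean of the resting Cre-only samples, with red for higher and blue for lower levels. The resting Runx1 c-k/o replicate 2 lies above the other resting samples over the cytosolic genes, and Lars2 stands alone in the 3-h Runx1 c-k/o replicate 2.

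Lars2, the mitochondrial leucine enzyme (chromosome 9 from 123276058 to 123371782), owed its call in Runx1 c-k/o cells to a single library. It was at 86.3, 99.3 and 93.4 CPM in Runx1 c-k/o cells at rest and at 113, 1900.2 and 88.9 CPM at 3 h, and in Cre-only cells at 104, 101 and 80.0 CPM at rest and at 157, 123 and 108 CPM at 3 h. Replicate 2 at 3 h lay above every other sample by an order of magnitude, and the other Runx1 c-k/o samples overlapped between times. The log2 fold change was 2.91 ± 0.893 (edgeR adjusted p = 0.0105), and without that library it was 0.13 (edgeR adjusted p = 0.510). Of the exon bases of Lars2, 398, or 10.3%, match 5 other places in mm9 at 95.2% to 98.8% identity. Of the annotated genes at those places, Gm15564 was at 1.25 CPM in this library and at 0.129 to 0.512 CPM in the others, while Gphn, Kpna1 and Fgfr2 were within the range of the others. The annotated microRNA gene mmu-mir-689-2, picked out after its values were seen, was at 385 CPM in this library and at 6.94 to 38.9 CPM in the others. The part of reads from elsewhere in the Lars2 value was not tested. This library is not one of the 2 that stand apart on the second component.

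Whether loss of Runx1 changed the synthetase genes at rest was asked next. By edgeR's quasi-likelihood test, 0 of 36 were called, while 0.731% of all tested genes were called higher in Runx1 c-k/o cells and 0.761% lower. At an unadjusted p under 0.05 there were 3 genes, Cars, Aars and Sars, while 11.1% of all tested genes were under it. With DESeq2 and 1 RUVs factor 2 were called, Cars (adjusted p = 0.0435) and Sars (0.0302), against 4.51% of all tested genes. All 20 cytosolic genes had a fitted value above 0, with a median log2 difference of 0.25, against 11 of 16 mitochondrial genes with a median of 0.03 and 55.6% of all tested genes with a median of 0.03. Without resting Runx1 c-k/o replicate 2, 10 of 20 cytosolic genes were above 0 and their median was -0.00396. All 3 Runx1 c-k/o samples lay above all Cre-only samples in 6 genes (Cars, Aars, Sars, Farsb, Mars2 and Iars2) and below them in 2 (Aars2 and Wars2), which compares with 12% and 11.6% of all tested genes.

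Cars was at 33.6, 30.8 and 33.1 CPM in resting Cre-only cells and at 38.4, 74.6 and 37.2 CPM in resting Runx1 c-k/o cells. Aars was at 69.1, 72.1 and 69.6 CPM and at 82.6, 152 and 75.1 CPM. Sars, the serine enzyme (chromosome 3 from 108227783 to 108248127), was at 101, 104 and 109 CPM and at 119, 190.4 and 118 CPM. In each, replicates 1 and 3 of the Runx1 c-k/o cells lay a little above the Cre-only samples and replicate 2 far above both. The log2 differences were 0.62 ± 0.218, 0.56 ± 0.213 and 0.44 ± 0.186 (edgeR adjusted p = 0.272, 0.329 and 0.399). Without replicate 2 the value of Cars was 0.22 (adjusted p = 0.668).

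**Figure D4:**
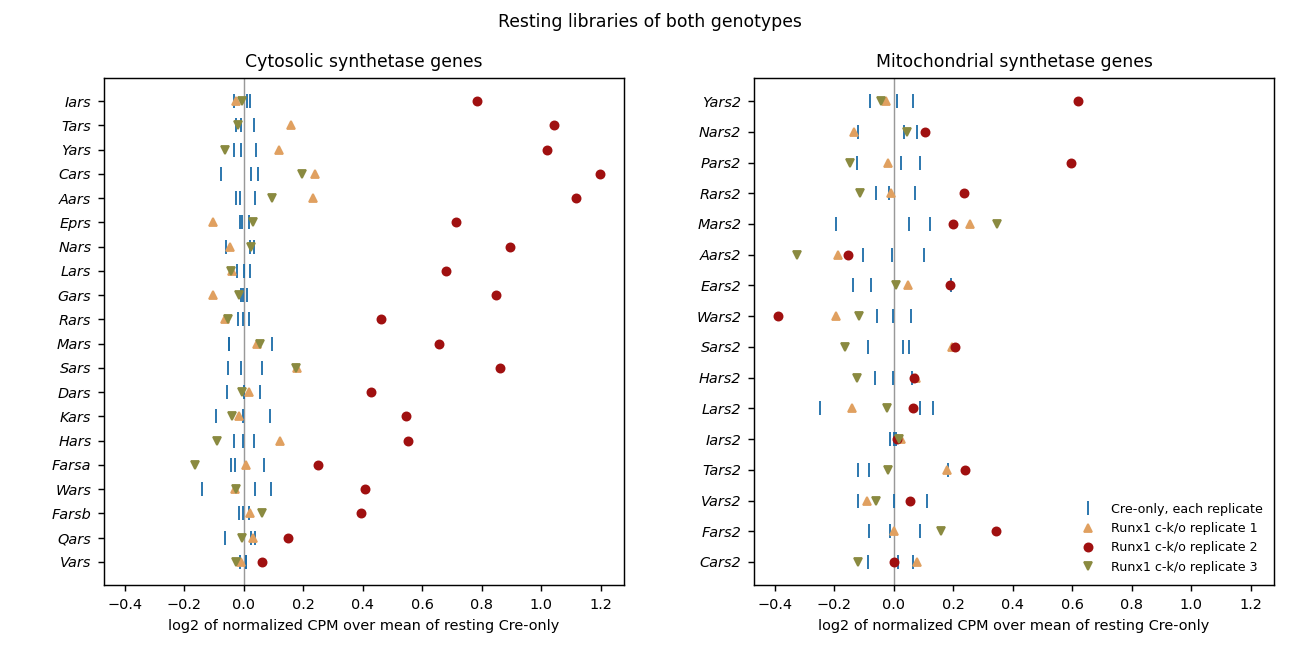
Log2 of the CPM of each resting library over the mean of the resting Cre-only samples for each synthetase gene, with ticks for Cre-only and symbols for Runx1 c-k/o replicates. Replicate 2 lies above all 3 Cre-only samples in 20 of 20 cytosolic genes, replicates 1 and 3 in 7 and 5.

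Replicate 2 was the highest of the 6 resting samples in 20 of 20 cytosolic genes, in 7 of 16 mitochondrial genes and in 41.1% of all tested genes. The cytosolic genes were at 1.06 to 1.98 times the mean of the other Runx1 c-k/o samples with a median of 1.56, against 1.11 over the mitochondrial genes and 1.06 over all tested genes. Yars, Cars, Tars and Aars were at the upper end of that range and Vars at its lower end. In the same library, all 15 tested Atf4 target genes were the highest of the 6, with a median ratio of 2.02, and so were all 3 scaffold genes, at 1.98. Its summed level of 4 plasma cell markers, 401 CPM, was above the 165 to 267 CPM of the other resting samples. Igj (262 CPM) and Xbp1 (117 CPM) made up most of that sum. Prdm1 (13.4 CPM) was below the 14.3 to 19.0 CPM of the Cre-only samples, and Sdc1 (8.98 CPM) was below their 17.4 to 18.8 CPM but above the 5.97 and 6.15 CPM of the other Runx1 c-k/o samples. The summed level of 6 myeloid markers in this library, 462 CPM, was above the 234 to 368 CPM of the other resting samples, and that of 4 early activation genes, 2850 CPM, above their 2072 to 2620 CPM. Of these, Egr1, Myc and Nr4a1 were the highest of the 6 in this library, and Cd69 (564 CPM) was below the 650 to 714 CPM of the Cre-only samples. As a sum this list did not rise with the 3-h culture in Cre-only cells (2191 to 2620 CPM at rest and 2103 to 2363 CPM at 3 h), where Myc rose, Nr4a1 and Cd69 fell and Egr1 was not called. Its 7 T and NK cell markers, at 5.24 CPM, and 7 B cell markers, at 8927 CPM, were within the range of the others, and the part of these cell types or of activation in the synthetase levels was not tested.

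Of 39 partner genes tested, 1, or 2.56%, was called by genotype at rest, against the 0.731% and 0.761% of all tested genes given above, and the values of that gene are a description. 6530401N04Rik, which encodes Dtd2 and is one of the listed editing genes, was at 2.07, 2.90 and 1.98 CPM in Cre-only and at 3.51, 5.17 and 4.91 CPM in Runx1 c-k/o cells. All Runx1 c-k/o samples lay above all Cre-only samples, and the log2 difference was 0.96 ± 0.205 (edgeR adjusted p = 0.0413), a call kept in 12 of 22 alternative fits (adjusted p 0.00362 to 0.205) and lost without the resting Runx1 c-k/o replicate 2. At 3 h it was at 5.44, 5.16 and 5.61 CPM against 8.24, 6.17 and 6.77 CPM and was not called.

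At 3 h the genotypes were again compared directly. By edgeR's quasi-likelihood test 0 of 36 synthetase genes were called, against 1.47% of all tested genes called higher in Runx1 c-k/o cells and 1.30% lower. The unadjusted p was under 0.05 for 4 genes, Wars2, Lars2, Fars2 and Tars2, and for 16.2% of all tested genes. DESeq2 called 1 of them, Wars2, and 5.22% of all tested genes. The cytosolic median log2 difference was 0.12 with 18 of 20 genes above 0, against 51.0% of all tested genes, and without the 3-h replicate 1 it was 0.03 with 13 above 0. That library was the highest of the 6 in 18 of 20 cytosolic genes, at a median of 1.23 times the other Runx1 c-k/o samples, where 33.7% of all tested genes had their highest level. So were 14 of 15 tested Atf4 target genes and all 3 scaffold genes. Its 4 early activation genes summed to 3243 CPM, against 2103 to 2520 CPM in the other 3-h samples. Myc, Cd69 and Nr4a1 were the highest of the 6 there, while Egr1 (228 CPM) was not above replicate 2 (229 CPM). As given above, this sum did not rise with the culture in Cre-only cells, and the part of activation in the synthetase levels of this library was not tested. Eprs and Iars were the exceptions. Eprs was at 832 CPM in that library, 819 and 923 in the other Runx1 c-k/o samples and 841 to 896 in Cre-only cells. Iars was at 576 CPM in that library, 620.2 and 734 in the other Runx1 c-k/o samples and 692 to 713 in Cre-only cells. All 3 Runx1 c-k/o samples lay above all Cre-only samples in Fars2, Tars2, Sars and Gars and below them in Wars2 and Iars2, where 9.50% and 12.3% of all tested genes did so.

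Wars2, the mitochondrial tryptophan enzyme (chromosome 3 from 98944991 to 99043109), came nearest to a genotype call. It was chosen for naming because it is in a supplementary gene list of the study, whose values for it are not given here. It was at 33.4, 27.0 and 29.4 CPM in 3-h Cre-only cells and at 21.0, 21.7 and 25.0 CPM in 3-h Runx1 c-k/o cells. At rest it was at 18.4, 17.0 and 17.7 CPM and at 15.5, 13.5 and 16.3 CPM. All Runx1 c-k/o samples lay below all Cre-only samples at both times. The log2 difference was -0.41 ± 0.111 at 3 h (edgeR adjusted p = 0.0813) and -0.23 at rest (adjusted p = 0.507). The 3-h value passed in 5 of 22 alternative fits, with adjusted p from 0.0266 to 0.315, among them DESeq2 (0.0470) and 1 RUVs factor in edgeR (0.0266). The fall was not shown to differ between the times, with an interaction of -0.18 on the log2 scale (edgeR adjusted p = 0.999).

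Fars2 was at 7.94, 7.97 and 7.71 CPM in 3-h Cre-only and at 13.9, 10.8 and 8.07 CPM in 3-h Runx1 c-k/o cells, with the third replicate just above the Cre-only range. Its log2 difference was 0.47 ± 0.172 (edgeR adjusted p = 0.204). The Lars2 difference at 3 h was 2.44 (edgeR adjusted p = 0.196) and became -0.36 without replicate 2. Sars, one of the genes nearest a difference at rest, was at 436, 450.0 and 446 CPM in 3-h Cre-only cells and at 699, 485 and 480.1 CPM in 3-h Runx1 c-k/o cells, where replicate 1 stood alone.

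**Figure D5:**
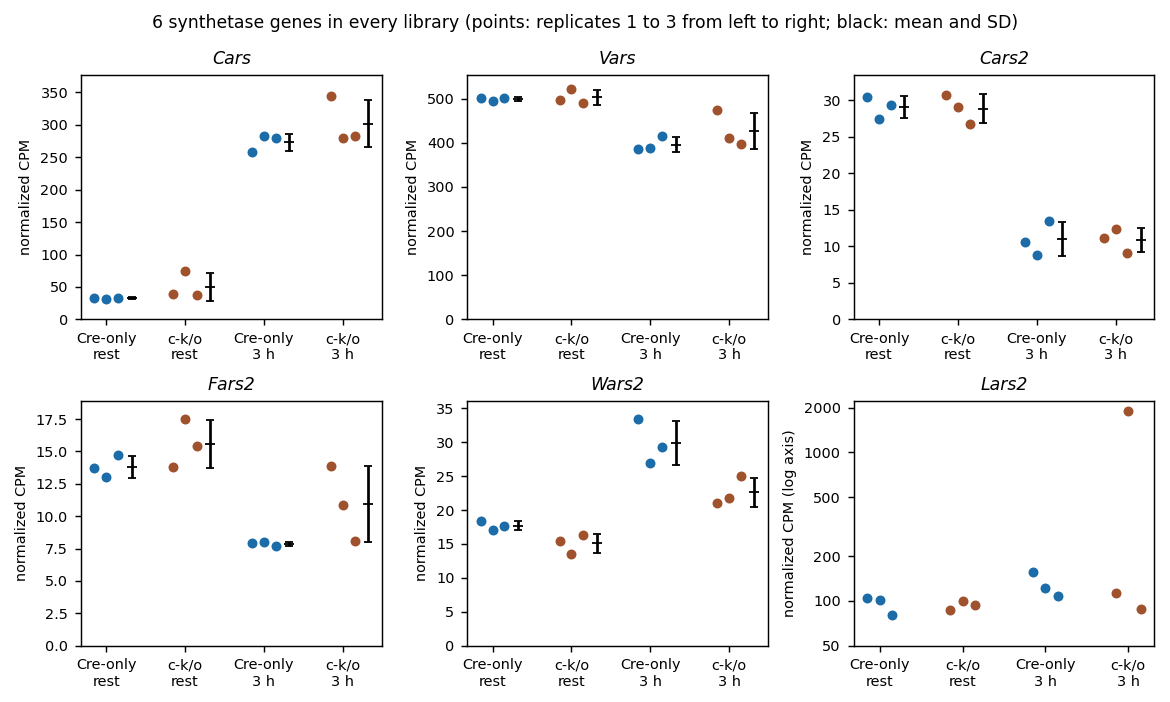
CPM of 6 synthetase genes in all 12 samples, with points for samples and, except for Lars2, the mean and SD of each group of 3 beside them. Wars2 is lower in all Runx1 c-k/o samples at both times, Vars and Cars2 are lower at 3 h, and Lars2 (log axis) reaches 1900.2 CPM in 1 library.

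Whether activation changed the genes differently in the genotypes was tested by the interaction. No synthetase gene was called (0 of 36 by edgeR's quasi-likelihood test, 0 at an unadjusted p under 0.05, and 0 by DESeq2), where the same 3 rules took in 0.0813%, 5.07% and 0.584% of all tested genes in either direction. The cytosolic genes had a median interaction of -0.10 on the log2 scale with 18 of 20 below 0, where 57.2% of all tested genes were below 0 with a median of -0.04. Without resting replicate 2 the median was 0.11 with 17 of 20 above 0, and without both libraries that stand apart it was 0.00158 with 10 on each side. A miss of the threshold does not show that the genotypes respond alike.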

How the data were processed

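Poly(A) RNA of 12 samples was sequenced as stranded paired ends. The authors aligned reads to mm9 (NCBIM37) with TopHat2 2.0.11 after CASAVA 1.8.4, counted them on Ensembl genes with featureCounts, and deposited raw read counts per gene without normalization. The strand and multiple-alignment settings of the counting are not given in the sources used here. Spike-in RNA was added but has no rows, so values are relative. The start-site sequence of Aars is not reported here.

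Counts were read with Python 3.11.15 and pandas 2.3.3, and models were fitted in R 4.3.3. Genes kept by filterByExpr (minimum count 10) were normalized by TMM, fitted over all 12 samples as 4 groups by the robust quasi-likelihood method of edgeR 4.0.16, and adjusted by Benjamini-Hochberg over all 13538 genes. Errors of log2 changes are standard errors of the fit, and ratios to other replicates used CPM + 0.1. Positions, overlaps and exon lengths are from GENCODE vM1 on mm9, where copies of at least 100 bases and 95% identity were sought. There were none for 29 genes, and Iars and Lars2 had copies of at least 10% of their exon bases. Another 5 had copies of less: Yars (5.89%, 12869 matches), Cars2 (5.41%), Farsa (3.9%), Wars2 (2.37%) and Qars (2.24%). Yars also shares 88 exon bases with snoU13 on its own strand. The authors' own test used DESeq2 with RUV-seq.

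The genes, lists, naming rule and tests were chosen with earlier results of these data known. Values in every sample are given for the 8 cytosolic and 4 mitochondrial genes with the largest called change in Cre-only activation, for the 3 with the smallest p in each genotype comparison, for Wars2, for the 2 lowest and 2 highest per length, and from the partner lists for those called by genotype and the 2 with the largest change. Qars, Vars and Fars2 were added after their values were seen. Same-numbered resting and 3-h samples deviated together in Cre-only cells (correlations 0.275, 0.176 and 0.144 over genes) but not in Runx1 c-k/o cells (-0.254, -0.264 and 0.254) or between genotypes (-0.066 to 0.068). In Runx1 c-k/o cells the highest were 0.477 for resting replicate 2 with 3-h replicate 1, the libraries that stand apart, 0.309 for 3 with 2 and 0.268 for 1 with 3, so the numbers pair samples in Cre-only activation only. Alternatives were other normalizations and filters, DESeq2 1.42.0, 1 RUVs factor, replicate blocks, fits of only the 2 groups in question, leaving out each sample, and, added after seeing the data, both Runx1 c-k/o libraries that stand apart left out. On data simulated for the resting genotype comparison over 13538 genes, edgeR called 62 of 67 genes with a log2 change of 2. It called 47 of 67 at 1, 14 of 66 at 0.5 and 11 of 13338 unchanged. Each gene was drawn independently in each simulated sample. No simulated library was shifted over many genes, as resting Runx1 c-k/o replicate 2 was, so these rates do not cover such a shift.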

Additional observations from a re-analysis of the deposited data

How the results depend on the processing

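On activation in Cre-only cells, the cytosolic median log2 change (2.17) was 2.083 with DESeq2's size factors and with DESeq2, 2.042 with total counts, 2.007 over genes with 10 counts in every sample, 1.613 and 1.506 with 1 RUVs factor in edgeR and DESeq2, 2.097 with only the 2 groups compared and 2.121 without both libraries that stand apart. The mitochondrial median (0.64) was 0.561, 0.5212, 0.6131 (no filter), 0.4863, 0.5621 (DESeq2), 0.5291 (RUVs, DESeq2), 0.5814 and 0.6048. Total counts moved the median of all genes from 0.03 to -0.10. Tars2 was at -0.06433 with 1 RUVs factor in DESeq2, and Hars2 and Sars2 lost their calls there. With each sample left out in turn, the ranges were 2.116 to 2.201 and 0.5754 to 0.6759 for these medians, 1 to 3 genes called lower in Runx1 c-k/o activation (1 without resting replicate 2 or without 3-h replicate 3), -0.02894 to 0.09533 for the mitochondrial median of the resting genotype comparison, 0 to 2 genes called higher and 0 to 1 lower at 3 h (2, Fars2 and Lars2, and 1, Wars2, without 3-h Runx1 c-k/o replicate 3), and -0.07507 to 0.05957 for the mitochondrial interaction median. In Runx1 c-k/o activation the count of genes called lower was 1 with only the 2 groups compared, the cytosolic median 1.502 and 1.442 with 1 RUVs factor, and the mitochondrial median 0.4982 (total counts), 0.5111 (10 counts) and 0.5288 (RUVs, DESeq2). At rest, DESeq2 with 1 RUVs factor called 2 genes higher, and the mitochondrial median was -0.01024 with total counts and -0.02343 without both libraries. At 3 h, 1 gene (Wars2) was called lower with DESeq2, with 1 RUVs factor in either tool and without both libraries. The mitochondrial interaction median was 0.04179 over genes with 10 counts in every sample. With the replicate block within genotype, which fits the pairing of Cre-only samples, Tars2 lost its call (edgeR adjusted p = 0.0523). It also did so under the replicate block across groups (0.0649). In Runx1 c-k/o cells Lars2 and Vars lost theirs. The numbers were not found to pair Runx1 c-k/o samples, so these 2 losses do not bear on pairing. The block changed no other call of the 36 synthetase genes. Among the partner genes, Eef2 lost its call in Cre-only activation under both blocks. Gfm2 lost its call in Runx1 c-k/o activation under the block within genotype, and 6530401N04Rik at rest under the block across groups. The numbers were not found to pair the samples of these comparisons either. The cause of these moves was not tested. The synthetase genes had at least 67 counts in every sample. Counting error and the spread between samples were not compared as limits.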
